A study of Mus musculus with 2 samples.

Results

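Mast cell proteases and other genes characteristic of mast cells were examined in mouse small intestine after a diet enriched in the marine fatty acids EPA and DHA. All probesets annotated to 10 genes were taken: the granule proteases Mcpt1, Mcpt2, Mcpt4, Cma1, Tpsb2 and Cpa3, the receptor genes Kit, Fcer1a and Ms4a2, and Hdc. They were read by 14 of the 45101 probesets on the array, and these 10 genes stand among 18193 with a probeset of their own. The genes were chosen with their signals on these arrays known, so their ratios are a description. Both groups were male C57BL/6J mice, an inbred strain, 4 months old at the start and fed a semisynthetic diet with 20% fat by weight for 4 weeks. In the EPA&DHA group, 44% of the dietary lipid was exchanged for a concentrate with 6% EPA and 51% DHA, whereas the control group received flaxseed oil alone, which is rich in their precursor ALA. RNA of 11 of 12 EPA&DHA mice and of 10 of 12 control mice was pooled per diet, and each pool was run on 1 Affymetrix array. With 1 array per diet there was no replicate, so no standard error or p-value was computed, and a diet effect cannot be told apart from the contribution of single mice to a pool. The labels describe complete small intestine, the methods epithelial scrapings.

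Mast cells are tissue resident immune cells that store proteases, heparin and histamine in granules and release them when IgE on their surface meets antigen. In the mouse intestine, mucosal mast cells lie in the epithelium and lamina propria and typically carry the chymases encoded by Mcpt1 and Mcpt2. Connective tissue mast cells lie deeper, in the submucosa and muscle, and typically carry Mcpt4, Cma1, the tryptase Tpsb2 and carboxypeptidase A3.

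Signals are MAS5 summaries of the probes of a probeset, in arbitrary units scaled alike on both arrays. Signals of different probesets were set side by side only to rank probesets, to mark those near background and in sums over genes. Probesets were ranked by the mean of their log2 signals, and 24294 probesets, the upper 54% of the table without control probesets, were kept for counts over genes. The lowest mean signal kept, 50.9, is called the background level below, and single signals under it are described as near background. The spread at a given signal is given as the local SD, a robust SD of the log2 ratios of the 500 probesets nearest in signal. It was 0.76 at the background level and 0.26 at a signal of 1000, so ratios of dim probesets are much less certain. Absorptive enterocytes were well represented, with all 13 of their measured marker genes kept. For mast cells, signals were above the background level for 3 of the 10 genes on the EPA&DHA array and for 6 on the control array. The defining IgE receptor genes and Hdc were near background on both.

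The mucosal mast cell chymases had lower signals on EPA&DHA. Mcpt1, which encodes mast cell protease 1, a β-chymase released into the gut lumen and blood during worm infection, had a signal of 74.6 on the EPA&DHA array and 193 on the control array. This was 2.58-fold lower, a log2 ratio of -1.37 beside a local SD of 0.51. Mcpt2, the neighbouring gene for a closely related mucosal protease, had a signal of 109 on EPA&DHA and 255 on the control diet. This was 2.33-fold lower, a log2 ratio of -1.22 beside a local SD of 0.43. Both probesets were above the background level on both arrays. Each gene was read by 1 probeset annotated to that gene alone, but Mcpt1 and Mcpt2 are close relatives, and binding of one transcript to the probes of the other was not tested.

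Connective tissue type proteases were near background on EPA&DHA. Cma1, the mouse α-chymase, had a signal of 20.1 on the EPA&DHA array and 73.6 on the control array. With the dim array set to the background level, this was at least 1.44-fold lower, and its measured log2 ratio was -1.87 beside a local SD of 0.92. Cpa3, a carboxypeptidase that trims peptides such as endothelin and snake venom toxins, had signals of 11.7 on EPA&DHA and 58.6 on the control diet, at least 1.15-fold lower by the same bound. The measured log2 ratio of Cpa3 was -2.32 with a local SD of 1.37. For these genes only the control array stood above the background level, by a small margin, so the measured ratios rest on dim values. Bounds of this kind, here and below, leave out the spread, a local SD of 0.76 at the background level. They set no minimum for a real difference.
Tpsb2, a tryptase stored bound to heparin, was read by a pair of probesets. The first had a signal of 8.34 on EPA&DHA and 53.9 on the control diet, at least 1.06-fold lower by the same bound. Its measured log2 ratio was -2.69 with a local SD of 1.60. The other was near background on both arrays, with signals of 1.21 on EPA&DHA and 4.73 on the control diet. Mcpt4, the chymase closest in function to human chymase, was near background as well, with signals of 6.91 on EPA&DHA and 4.74 on the control diet. It was the only protease of the 6 with a higher value on EPA&DHA, and its log2 ratio of 0.54 was far inside its local SD of 2.28. The other 5 protease genes had lower values on every probeset.

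**Figure D1:**
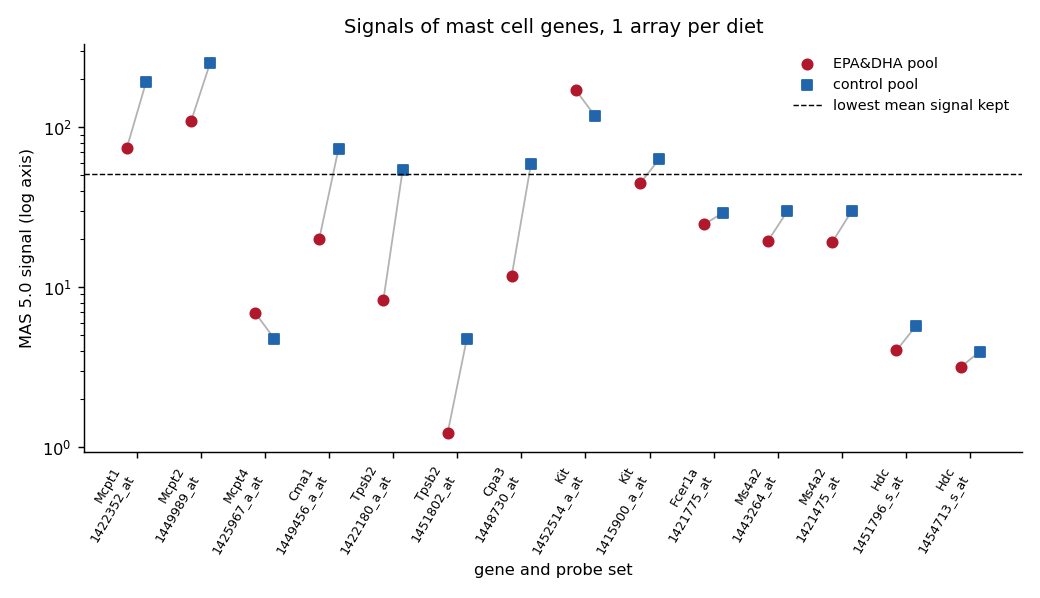
Signal (y axis, log scale, arbitrary units) of each of the 14 probesets of mast cell genes (x axis) on the EPA&DHA array (red circles) and the control array (blue squares), 1 array per diet. The dashed line is the background level of 50.9, above which both arrays lie only for Mcpt1, Mcpt2 and 1 probeset of Kit.

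Kit, the receptor for stem cell factor on which mast cells depend for survival, did not have 1 direction. One probeset had a signal of 171 on EPA&DHA and 118 on the control diet, 1.45-fold higher with a log2 ratio of 0.53 and a local SD of 0.45. Its other probeset had signals of 44.5 on EPA&DHA and 63.2 on the control diet, a log2 ratio of -0.50 with a local SD of 0.73. The probesets of Kit thus disagreed in sign, and the dimmer of the pair was near background on EPA&DHA. Kit is also a marker of the interstitial cells of Cajal, the pacemaker cells of the gut wall. Ano1, a chloride channel of those cells, had log2 ratios of -0.30 and -1.12 on its kept probesets, with signals of 67.4 and 43.3 on EPA&DHA, against 82.9 and 94.4 on the control diet. Over the 5 kept marker genes of interstitial cells of Cajal, 0 were 1.5-fold apart by their brightest probesets and the median log2 ratio was -0.24. Besides Ano1, Edn3 of that list was lower on other kept probesets, at -0.78, -0.68 and -0.44, and with probesets averaged 1 of the 5 genes was at least 1.5-fold lower. The signal summed over the genes of that list with a probeset of their own was 1322 on EPA&DHA and 1415 on the control diet. Most of both sums came from Edn3 (606 on EPA&DHA, 715 on the control diet) and Cd44 (445 on EPA&DHA, 408 on the control diet). They therefore do not describe Ano1. The part of interstitial cells of Cajal in the Kit signal was not tested.
Fcer1a and Ms4a2 encode the α and β chains of the high affinity IgE receptor. Fcer1a had a signal of 24.7 on EPA&DHA and 29.3 on the control diet. Ms4a2 had signals of 19.6 and 19.1 on EPA&DHA, against 29.9 and 29.8 on the control diet. All of these lay near background, and the log2 ratios of -0.25 for Fcer1a and of -0.61 and -0.64 for Ms4a2 were inside local SDs of at least 1.29. Hdc, the enzyme that makes histamine from histidine, had signals of 4.01 and 3.15 on EPA&DHA, against 5.68 and 3.95 on the control diet. A difference in the IgE receptor chains or in Hdc was not detectable at these signals.

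Counted over all 14 probesets, 12 had a lower value on EPA&DHA and 2 a higher one, where 54.8% of all probesets on the array had a lower value. At least 2-fold lower were 6 of the 14, against 15.2% of all probesets, and at least 1.5-fold lower were 8, against 23.1%. None was at least 1.5-fold higher, against 18.7% of all probesets. Of the probesets, 4 stood under the background level on EPA&DHA and above it on the control array, a pattern found in 6.36% of all probesets, and 7 were under it on both. The opposite pattern, found in 4.04% of all probesets, was not seen among the 14. Among the 3 genes with a kept probeset, Mcpt1 and Mcpt2 were at least 2-fold lower and Kit passed no fold threshold in either direction. Over the 11697 genes kept, 2.24% were lower and 1.56% higher by 2-fold or more, 7.93% were lower and 6.18% higher by 1.5-fold or more, and the median log2 ratio was -0.05. Of the 4 kept probesets of mast cell genes, 2 were lower by 2-fold or more, against 2.56% of kept probesets (2.28% were higher by that much). By 1.5-fold or more, 2 of the 4 were lower, against 8.87% of kept probesets, and 0 were higher, against 8.06%. The genes were chosen with this contrast in view, so these shares are a frame for the counts and nothing is read from the excess. Summed over the brightest probeset of each of the 10 genes, the signal was 450.0 on EPA&DHA and 821 on the control diet. Most of both sums came from Mcpt1, Mcpt2 and Kit, so they do not describe the dimmer genes. In RNA of mixed cell types, fewer mast cells and less of these transcripts per mast cell cannot be told apart.

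**Figure D2:**
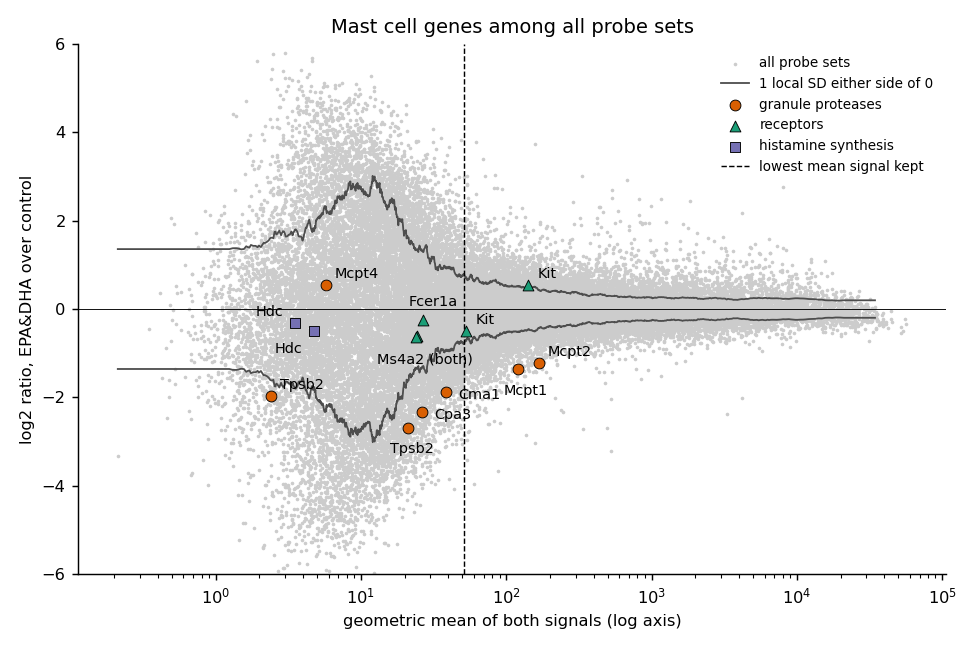
Log2 ratio of EPA&DHA over control (y axis) against the geometric mean of both signals (x axis, log scale) for all probesets (grey) and those of proteases (orange circles), receptors (green triangles) and Hdc (purple squares), where 14 grey probesets lie outside the range shown. Lines mark 1 local SD either side of 0, and the dashed line the background level; Mcpt1 at -1.37 and Mcpt2 at -1.22 lie right of it and outside the lines, and Hdc, Fcer1a, Ms4a2 and Mcpt4 lie inside them.

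Mcpt1, Mcpt2, Mcpt4 and Cma1 belong to a cluster of chymase and granzyme genes on chromosome 14. From Cma1 to Gzmb, the reference annotation lists 15 protein-coding genes in the order Cma1, Cma2, Mcpt1, Mcpt2, Mcpt9, Mcpt4, Mcpt8, Ctsg, then the granzymes. Each had a probeset, but only Mcpt1, Mcpt2 and Gzmb had a kept one. Gzmb, a granzyme of cytotoxic lymphocytes, had a signal of 1439 on EPA&DHA and 1476 on the control diet, a log2 ratio of -0.04 with a local SD of 0.25. The lower signal of the mucosal chymases was not seen for this brightly read gene at the other end of the cluster. The probeset that Cma2 and Mcpt9 share was near background, with signals of 12.3 on EPA&DHA and 31.6 on the control diet. Ctsg, cathepsin G of neutrophils and mast cells, had 5.71 on EPA&DHA and 35.1 on the control diet, and Mcpt8, a protease of basophils, had 24.9 on EPA&DHA and 4.81 on the control diet. These values near background went in both directions.
The tryptase genes lie on chromosome 17. Tpsab1, annotated as a transcribed pseudogene in the C57BL/6J reference, was near background with signals of 21.2 on EPA&DHA and 9.17 on the control diet. Tpsg1, a membrane tryptase, had signals of 285 on EPA&DHA and 329 on the control diet, a log2 ratio of -0.21. Of the 11 other genes of both groups that had a probeset of their own, 9 were near background on both arrays.

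**Figure D3:**
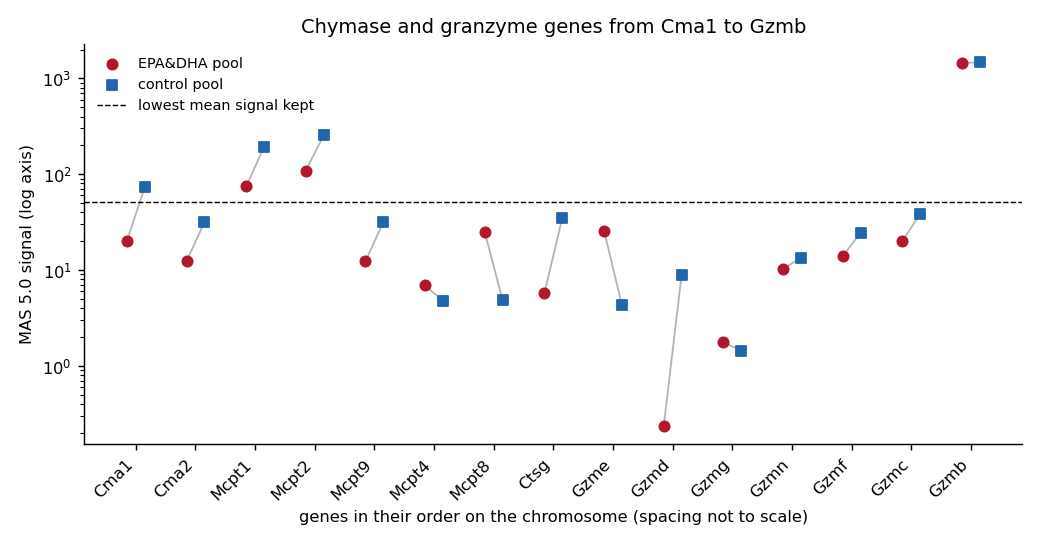
Signal (y axis, log scale, arbitrary units) on the EPA&DHA array (red circles) and the control array (blue squares) of the genes from Cma1 to Gzmb in their order on chromosome 14 (x axis, not to scale), each by its probeset with the highest control signal. Only Mcpt1, Mcpt2 and Gzmb lie above the background level (dashed line) on both arrays; Cma2 and Mcpt9 share 1 probeset.

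Promoters of 4 proteases are shown because Mcpt1 and Mcpt4, genes of the same cluster that typify mucosal and connective tissue mast cells, have nearly the same sequence before the gene. Sequences are the 250 bases before the gene start, from RefSeq on GRCm38.p6, which was found for 8 of the 10 genes. Capitals mark AGATAA or TGATAA on either strand, letter strings that GATA factors bind. AGATAA and TGATAA both contain GATAA, and no position matches both. Other strings that GATA factors bind were not searched.
Mcpt1, chr14:56017714-56017963, plus strand: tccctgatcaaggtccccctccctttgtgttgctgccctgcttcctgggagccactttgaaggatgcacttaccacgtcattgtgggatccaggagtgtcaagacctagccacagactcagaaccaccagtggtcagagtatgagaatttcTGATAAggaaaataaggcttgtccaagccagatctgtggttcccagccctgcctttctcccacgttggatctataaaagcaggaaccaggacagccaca
Mcpt4, chr14:56062311-56062560, minus strand: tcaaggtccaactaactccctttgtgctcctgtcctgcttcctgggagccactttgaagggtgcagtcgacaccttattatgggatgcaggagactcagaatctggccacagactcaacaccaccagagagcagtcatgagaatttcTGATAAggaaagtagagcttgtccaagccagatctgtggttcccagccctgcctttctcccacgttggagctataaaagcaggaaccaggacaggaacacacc
Cma1, chr14:55944676-55944925, minus strand: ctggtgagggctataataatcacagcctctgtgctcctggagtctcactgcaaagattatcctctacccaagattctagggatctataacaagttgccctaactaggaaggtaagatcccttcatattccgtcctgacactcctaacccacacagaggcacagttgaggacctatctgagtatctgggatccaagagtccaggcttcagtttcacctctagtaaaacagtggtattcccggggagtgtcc
Cpa3, chr3:20242182-20242431, minus strand: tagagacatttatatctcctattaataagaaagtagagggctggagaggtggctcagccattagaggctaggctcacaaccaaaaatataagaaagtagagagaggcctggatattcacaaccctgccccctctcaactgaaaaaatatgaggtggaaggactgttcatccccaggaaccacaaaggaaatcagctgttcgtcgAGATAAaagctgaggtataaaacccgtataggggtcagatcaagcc
Aligned with 20 gap positions, the Mcpt1 and Mcpt4 windows were identical at 213 of 240 aligned bases (88.8%) and shared an unbroken run of 53 bases. In the other 27 pairs among the 8 genes, the longest shared run was 6 to 11 bases. TGATAA stood 99 bases before the start of Mcpt1 and 103 bases before that of Mcpt4, and AGATAA stood 46 bases before the start of Cpa3. Neither was found in the Cma1 window, which does not show that a site for GATA factors is absent there. AGATAA or TGATAA was present in 5 of the 8 genes (Mcpt1, Mcpt4, Cpa3, Fcer1a and Ms4a2), and in 16.6% of 32851 promoters in the reference. CAGAC, the letters bound by SMAD factors, was found on either strand in 3 of the 8 (Mcpt1, Mcpt4 and Hdc) and in 42.2% of all promoters. The E-boxes bound by MITF were searched as CACGTG, found in 0 of the 8 and in 6.02% of all promoters, and as CATGTG, found in Fcer1a alone and in 12.3% of all promoters. Such matches describe these windows only. Gata2, a factor needed for mast cell development, had signals of 96.2 on EPA&DHA and 83.2 on the control diet on its kept probeset, a log2 ratio of 0.21 with a local SD of 0.59.

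Among kept genes of factors that draw and sustain mast cells, only Madcam1 passed 1.5-fold on its brightest probeset. Of 11 kept genes in a list of growth and homing factors, 1 was lower by 1.5-fold or more and 0 were higher. Over all genes, 7.93% were lower and 6.18% higher by that much. The median log2 ratio of the list was -0.11, by the brightest probeset of each gene, and that of all genes was -0.05. The lower one was Madcam1, the vascular adhesion molecule by which α4β7 bearing cells enter the gut, with signals of 69.7 on EPA&DHA and 126 on the control diet and a log2 ratio of -0.85. The integrin genes Itga4 and Itgb7, which form its receptor on mast cell progenitors, had log2 ratios of 0.01 and 0.24. Itgae, an integrin of mucosal mast cells and intraepithelial lymphocytes, had 0.06 on its brightest probeset but -0.77 on its other kept one. Kitl, which encodes stem cell factor, the ligand of Kit, is singled out after its values were seen. Its brightest probeset had a signal of 2557 on EPA&DHA and 3638 on the control diet, 1.42-fold lower with a log2 ratio of -0.51 and a local SD of 0.24. The other 3 probesets of Kitl had log2 ratios of -0.63, -0.42 and -0.87, so all 4 were lower on EPA&DHA. Il33, an alarmin to which mast cells respond, had 1429 on EPA&DHA and 1958 on the control diet, a log2 ratio of -0.45 with a local SD of 0.26. Of the cytokines, Il3, Il4 and Il9 were near background on both arrays. Tgfbr1, Tgfbr2 and Smad3, which relay the TGF-β signal that induces Mcpt1 in cultured mouse mast cells, had log2 ratios of -0.10, -0.07 and -0.11 on their brightest probesets. Other kept probesets of Tgfbr1 had 0.27 and -0.55, and those of Smad3 had -0.40 and -0.03. Tgfb1 of the same list had no kept probeset, with signals of 55.2 and 48.0 on EPA&DHA, against 33.2 and 22.4 on the control diet.

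Genes that carry the signal of the IgE receptor were lower more often than higher. Of 12 kept genes, 4 were lower by 1.5-fold or more and 1 was higher by that much. Over all genes, 7.93% were lower and 6.18% higher by 1.5-fold or more. By the brightest probeset of each gene, the log2 ratio was below 0 for 11 of the 12, with a median of -0.47, where 56.5% of all genes were below 0. Lat, the membrane adaptor shared with T cells, had signals of 108 on EPA&DHA and 242 on the control diet, a log2 ratio of -1.17 with a local SD of 0.48. Btk, a kinase shared with B cells, had a log2 ratio of -0.69, as did Pik3cd, a lipid kinase subunit of leukocytes. Syk, the kinase recruited by the receptor, had -0.65 on its brightest probeset but 0.31 on another kept one. Plcg1, a phospholipase of many cell types, disagreed more, with -0.49 on its brightest probeset and 0.81 on another kept one, where the signal was 155 on EPA&DHA and 88.0 on the control diet. Vav1, an exchange factor of blood cells, was the higher one, with 137 on EPA&DHA and 58.8 on the control diet. Fcer1g, the γ chain that the IgE receptor shares with other Fc receptors, had 225 on EPA&DHA and 236 on the control diet, a log2 ratio of -0.07. These genes also act in T cells, B cells and macrophages, and which cells supplied their signal was not tested.

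For enzymes of the lipid mediators of mast cells, 0 of 5 kept genes were at least 1.5-fold apart. All 5 had log2 ratios below 0, from -0.53 to -0.08, where 56.5% of all genes were below 0. Alox5 and Alox5ap, which start leukotriene synthesis, had log2 ratios of -0.53 and -0.36 with local SDs of 0.42 and 0.30. Ltc4s, which makes leukotriene C4, had -0.43 with a local SD of 0.27, and signals of 765 on EPA&DHA and 1029 on the control diet. The log2 ratios of Lta4h and Pla2g4a, -0.19 and -0.08, were inside local SDs of 0.24 and 0.43. Alox5ap was also listed as a tuft cell marker, and which cells supplied these signals was not tested. Among 3 kept genes of histamine receptors and breakdown, 0 were 1.5-fold apart. Aoc1, the intestinal diamine oxidase that degrades histamine, had a signal of 19303 on EPA&DHA and 23778 on the control diet, a log2 ratio of -0.30. Hrh1 and Hrh2, which encode histamine receptors, had log2 ratios of -0.22 and 0.36.
In a list of 15 other kept genes tied to mast cells, 2 were lower by 1.5-fold or more and 1 was higher by that much. The shares over all genes were 7.93% and 6.18%. The median log2 ratio of this list was 0.09. Lat2, an adaptor of mast cells and B cells, had 39.3 on EPA&DHA and 103 on the control diet, at least 2.02-fold lower against the background level. The other lower one was Cyp11a1, with 40.2 on EPA&DHA and 75.9 on the control diet, at least 1.49-fold lower by the same bound. Other probesets of Cyp11a1 were near background and went in both directions. The higher one, the adenosine receptor gene Adora3, had 68.3 on EPA&DHA and 39.2 on the control diet, at least 1.34-fold higher. Slc18a2, which loads histamine into granules, had 77.6 on EPA&DHA and 68.4 on the control diet, and Srgn, the core protein of granule proteoglycans that other leukocytes also make, had 1166 on EPA&DHA and 1540 on the control diet. Signals in this wider list went both ways, with 7 of the 15 genes below 0. Siglecf and Gata2 of the 15 were also listed as markers of eosinophils and basophils, and which cells supplied these signals was not tested. Of the 23 genes in the list with a probeset of their own, 7 were near background on both arrays by their brightest probesets. Mrgprb1, Cd200r3, Il9r and Slc45a3 were among these, so the 15 do not describe them. Among 6 kept receptors and inhibitors of such proteases, Slpi, an inhibitor of leukocyte serine proteases, had 154 on EPA&DHA and 39.1 on the control diet, at least 3.02-fold higher, and the other 5 had log2 ratios from -0.16 to 0.14 on their brightest probesets. F2r, a thrombin receptor among these 5, had -0.91 on another kept probeset.

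**Figure D4:**
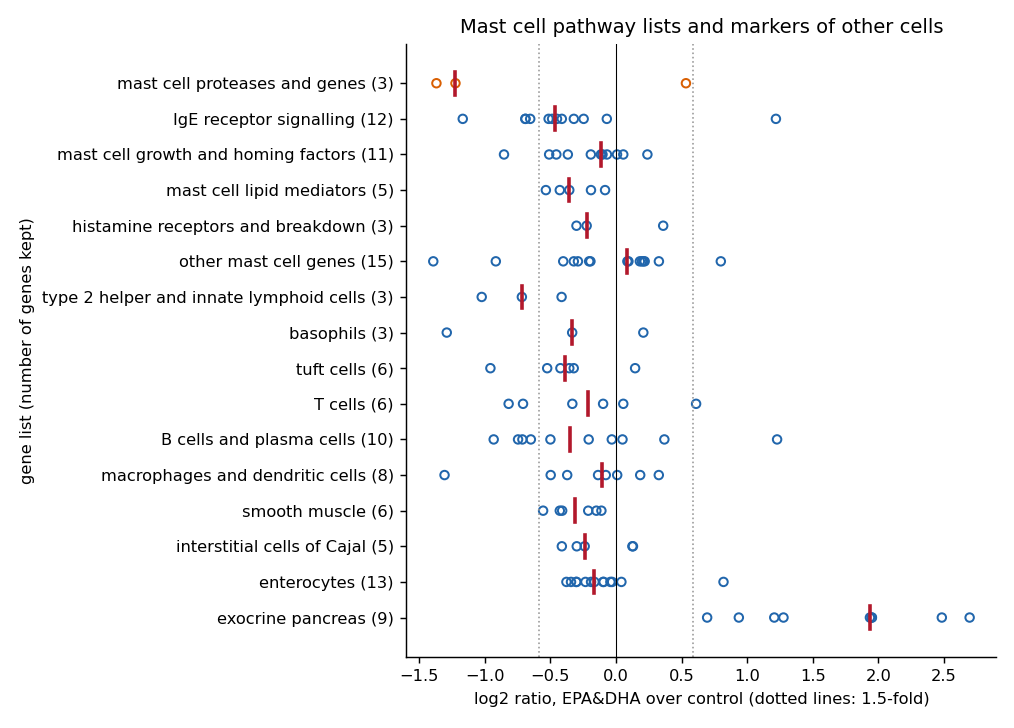
Log2 ratio of EPA&DHA over control (x axis) for each kept gene (circles) of the mast cell genes (top, orange), of 5 lists of mast cell pathways and of 10 lists of markers of other cells (y axis, number of kept genes in brackets); red bars are medians and dotted lines mark 1.5-fold. Medians are -1.22 for the mast cell genes, -0.47 for IgE receptor signalling and 1.94 for the exocrine pancreas. Only Mcpt1, Mcpt2 and Kit of the mast cell genes were kept, so their median is the value of Mcpt2. Over all 14 probesets of mast cell genes the median was -0.63.

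Markers of other cells also differed between the arrays, and their part in the signals of the mast cell genes was not tested. Beside the counts that follow, 7.93% of all genes were lower and 6.18% higher by 1.5-fold or more. In the T cell list, 2 of 6 kept genes were at least 1.5-fold lower (Cd8a at -0.82 and Thy1 at -0.71) and Cd3e was higher at 0.61. Other kept probesets of Cd8a had log2 ratios from -0.52 to 0.02. Summed over the T cell list, the signal was 1657 on EPA&DHA and 1867 on the control diet. In the list of B cells and plasma cells, 4 of 10 were lower, the B cell genes Ms4a1, Cd79a, Cd79b and Ighm at -0.75, -0.71, -0.65 and -0.93. These are log2 ratios of the brightest probesets, and other kept probesets of Ighm ranged from -0.65 to 0.25, and another of Ms4a1 had -0.11. The plasma cell gene Tnfrsf17 was higher at 1.23. The signal summed over the list, 30975 on EPA&DHA and 28214 on the control diet, was mostly that of Jchain (14860 on EPA&DHA, 11507 on the control diet) and Xbp1 (13585 on EPA&DHA, 13124 on the control diet), and so does not describe the B cell genes. Smooth muscle markers, which accompany the deeper layers where connective tissue mast cells lie, had 0 of 6 kept genes 1.5-fold apart and log2 ratios from -0.56 to -0.11. Summed over the list of smooth muscle, the signal was 1287 on EPA&DHA and 1501 on the control diet. Enterocytes had a median log2 ratio of -0.16, and by brightest probesets only the peptide transporter Slc15a1 passed 1.5-fold, at 0.82. The glucose transporter Slc5a1 had -0.10 on its brightest probeset and 0.74 on its other kept one. The exocrine pancreas, the gland beside the duodenum, had the largest median of the lists, 1.94, with 9 of 9 genes at least 1.5-fold higher and a sum of 16542 on EPA&DHA and 5970 on the control diet.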

How the data were processed

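The authors pooled small intestinal RNA per diet, hybridized each pool to an Affymetrix MOE430_2 array and summarized probes with MAS5 (version not given in the sources used here). Linear signals were deposited, which the authors had scaled, and their 2% trimmed mean was 500.0 on both arrays. They were used as deposited, after 64 control probesets were set aside. Of the other 45037 probesets, 34945 named 1 gene in the platform annotation, updated by gene identifier, 932 named several and 9160 none. A gene took its brightest kept probeset naming it alone. Log2 ratios are EPA&DHA over control. The 10 genes, the lists, written from general knowledge, and the fold thresholds of 1.5 and 2 were chosen with earlier results of these data known. Named in the text were all probesets of the 10 genes, list genes past 1.5-fold on their brightest kept probeset, and defining markers. No test was possible with 1 array per diet, and the number of arrays limits the precision. The ratio and local SD steps were run on simulated data. Changes were planted only in probesets brighter than those of the 10 genes, with noise drawn from the same local SD. This run therefore cannot show how well the steps perform for the 10 genes. Counting over genes and lists was not tested. Alternatives were other scalings (none, which repeats the reported values, median centring, quantile, loess with span 0.3), an offset of 50, other filters and other choices of probeset. Python 3.11.15 was used with pandas 2.3.3, numpy 2.4.6, Biopython 1.88 for promoter alignment, matplotlib 3.10.9 and statsmodels 0.14.6.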

Additional observations from a re-analysis of the deposited data

How the results depend on the processing

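The log2 ratio stayed between -1.37 and -0.96 for Mcpt1 and between -1.22 and -0.94 for Mcpt2 over 3 other scalings and an offset, and none of the 14 probesets changed sign under the scalings. Leaving out further scaling repeated the reported values, since the deposited arrays already shared 1 trimmed mean. An offset of 50 on both signals, which by construction shrinks ratios of dim probesets and cannot turn a sign, moved Cma1 to -0.82, Cpa3 to -0.81 and Tpsb2 to -0.83 and -0.10. Without a filter on signal, 6 of 10 mast cell genes were at least 1.5-fold lower, in place of 2 of 3, because dim probesets then entered. With only the upper 25% of probesets none of the 10 genes was left.
For IgE receptor signalling, 4 of 12 genes were lower, against 2 of 12 with the offset and 1 of 3 with the stricter filter, and 1 of 12 was higher, against 2 of 13 without a filter and 0 of 3 with the stricter one. For growth and homing factors, 1 of 11 was lower, against 0 of 11 with the offset, 0 of 7 with the stricter filter, 4 of 19 without a filter and 2 of 11 with probesets averaged, and 0 of 11 were higher, against 5 of 19 without a filter. The filters also change how many genes are counted. Over all kept probesets, 2155 were lower and 1958 higher by 1.5-fold, against 1012 and 1082 with the offset, 10408 and 8430 without a filter and 274 and 496 with the stricter one. Over all lists, 264 of 321 recomputed counts stayed within 1.5 times. Counts that stayed at 0 are among these, so this share does not measure how stable the other counts were. No paired analysis was possible because each diet has 1 array. Precision was limited by signal, since 7 of the 14 probesets were under the background level on both arrays.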

Other observations

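Some further markers of cells of type 2 immunity had lower signals on EPA&DHA on their brightest probesets. Il17rb, the receptor for IL-25, had signals of 99.0 on EPA&DHA and 163 on the control diet, a log2 ratio of -0.72, and Rora, a factor of group 2 innate lymphoid cells that epithelial cells also express, had 43.6 on EPA&DHA and 88.6 on the control diet, at least 1.74-fold lower. Another kept probeset of Rora had 58.1 on EPA&DHA and 55.7 on the control diet. Of 3 kept genes in this list, 2 were at least 1.5-fold lower, against 7.93% of all genes. This count was 0 with an offset of 50 and 1 with probesets averaged. Trpm5, an ion channel of tuft cells, had 155 on EPA&DHA and 300.0 on the control diet, but its other kept probesets had log2 ratios of 0.51 and -0.97, and Dclk1, another tuft cell gene, had -0.42 on its brightest probeset and from -0.73 to 0.60 on 3 other kept ones. Avil, a further tuft cell gene, had 0.15, and the other 5 of 6 kept tuft cell genes were below 0 by their brightest probesets. The share below 0 was 56.5% over all genes. Itga2, an integrin of basophils and of many other cells, had 76.2 on EPA&DHA and 186 on the control diet. Of 3 kept genes in the basophil list, it was the 1 at least 1.5-fold lower, against 7.93% of all genes. Gata2 and Cebpa of that list had log2 ratios of 0.21 and -0.33. Mcpt8, a basophil protease near background, had 24.9 on EPA&DHA and 4.81 on the control diet. Cx3cr1, a chemokine receptor of intestinal macrophages, had 44.9 on EPA&DHA and 111 on the control diet, at least 2.18-fold lower. Csf1r and Itgax of the list of macrophages and dendritic cells had log2 ratios of -0.08 and 0.01. Of 8 measured eosinophil markers, only Siglecf was kept, with 247 on EPA&DHA and 212 on the control diet.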
